A study of Mus musculus with 32 samples.

Results

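RADICL-seq joins RNA to neighbouring DNA in fixed nuclei with a bridge adapter, and every sequenced molecule yields an RNA tag, which gives the transcript, and a DNA tag, which gives the genomic position it was ligated to. The interactions described here are those whose RNA tag was placed in the 3′ untranslated region (3′UTR) of a gene by the annotation column of the deposited lists. There were 929493 such interactions among 25231081 in 15 libraries, and they came from 12215 genes, of which 12206 could be named. For comparison, 19827416 interactions had their RNA tag in an intron and 1483635 in a coding sequence (CDS). Nearly all 3′UTR interactions, 929476, belonged to protein-coding genes.

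The cells were mouse R08 embryonic stem cells, called mESC, and the line Oli-neu, oligodendrocyte progenitors called mOPC. mESC 1FA (3 libraries) and mOPC 1FA (3 libraries) were cells fixed with 1% formaldehyde, and mESC 2FA (3 libraries) was fixed with 2%. mESC ActD4 (2 libraries) received actinomycin D, which blocks transcription, at 5 µg/ml for 4 h and was then fixed with 1% formaldehyde. In mESC NPM and mOPC NPM (2 libraries each, non-protein-mediated) the crosslinks were reversed and proteins digested before the adapter was ligated to the RNA, so that pairs held together by protein should largely be lost. The 1FA, 2FA and ActD4 libraries, in which the crosslinks were kept until after ligation, are called crosslinked below.

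The 3′UTR is the part of a messenger RNA between the stop codon and the end of the transcript. It carries sites for microRNAs and RNA-binding proteins that set how long a messenger lasts, where it goes and how much it is translated, and in most genes it closes with a poly(A) tail. Messengers of the replication-dependent histones are the exception, since they end in a short conserved stem-loop without a tail. A nascent transcript reaches its 3′UTR last, when RNA polymerase II has passed over the whole gene, so an RNA tag here can stem from a transcript that is about to be released or from a finished one. On the chromosome the gene body lies upstream of its 3′UTR, and the DNA downstream belongs to the region behind the gene.

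Single positions in 3′UTRs were captured many times. The 4 sequences below are the most captured single positions outside the histone genes, each as 30 bases around the centre of the tag, 5′ to 3′ on the RNA strand, in the mouse build mm10. Capitals mark the letters GCAG where they begin 10 to 13 bases downstream of the tag centre, which are taken up again below.

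Mcph1, chr8:18802511-18802540, plus strand: acactgagtcccagtgagcttaaaaGCAGt

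D10Wsu102e, chr10:83367229-83367258, plus strand: ggggatgggcagggcaccaggcagaGCAGa

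Ppp1cb, chr5:32492330-32492359, plus strand: ggttagcattaacaaatgtcaaggagtagc

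Snrpd3, chr10:75535581-75535610, plus strand: ctggggagatgccagcactcttcaaGCAGc

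The Mcph1 position gave 406 interactions in all libraries together, with 405 different DNA positions at a median distance of 123950 bases, and no interaction in the 4 NPM libraries. It held 37, 59 and 60 of the 100, 124 and 127 3′UTR interactions of Mcph1, a gene of chromosome condensation, in mESC 1FA. The D10Wsu102e position gave 182 interactions, the Ppp1cb position 147 and the Snrpd3 position 134. The Ppp1cb position, the only one without GCAG, gave 72, 38 and 31 interactions in mOPC 1FA against 1, 0 and 0 in mESC 1FA.

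A second set shows the histone messengers, whose most captured positions lie at the stem-loop. Capitals mark the letters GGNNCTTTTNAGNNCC, a pattern searched on the RNA strand for this conserved element.

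Hist1h4d, chr13:23581941-23581970, plus strand: aaaaccaaaGGCCCTTTTCAGGGCCactac

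Hist1h1c, chr13:23739502-23739531, plus strand: caatccaaaaGGCTCTTTTCAGAGCCacca

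Hist1h4h, chr13:23531449-23531478, plus strand: aaaaccaaaGGCCCTTTTCAGGGCCgccca

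Hist1h1d, chr13:23555778-23555807, plus strand: atctcaaacGGCTCTTTTCAGAGCCaccca

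Hist2h4, chr3:96262932-96262961, minus strand: ccctaacGGCCCTTTTTAGGGCCaaccaca

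The letters were present in the 3′UTR of 44 of 67 histone genes (65.7%) and of 61 of 21808 genes in all (0.280%). Hist1h4d, Hist1h4h and Hist2h4 code for the same protein, histone H4, and the genes resemble each other so closely that the assignment of a short tag to one of them is uncertain. The Hist1h4d position gave 73 and 34 interactions in mESC NPM and 20 and 21 in mOPC NPM. It gave 0, 0 and 1 in mESC 1FA, 3, 1 and 8 in mESC 2FA and none in mOPC 1FA or mESC ActD4.

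The libraries listed 251802 to 2832717 significant interactions, of which 6144 to 116482 had a 3′UTR tag from 2731 to 8877 genes. The authors called significance on the pooled replicates of a group, so the replicates share 1 list of pairs and their spread is not that of libraries called one by one. Pairs past the threshold alone are listed, so these totals are not the sequencing depth, and a gene without a listed interaction may still have been captured. The mESC ActD4 libraries differed in their gene counts by little more than sampling noise (chi-square per degree of freedom 1.04, against 2.10 to 6.71 in the other replicate pairs) and were kept as 2 libraries. They shared 8 identical 3′UTR interactions, 0.130% of the smaller library, against 0.0113% to 0.100% in the other crosslinked replicate pairs. Whether they are 1 library split in 2 was not tested, and if they were, the SDs and exact p-values given for ActD4 would rest on a single library. A summed alternative for them is given in the closing section. The lines carried their markers. Over 30 mESC markers the 3′UTR interactions summed to 1130 to 1591 per 100000 in the mESC libraries and to 48.0 to 94.5 in the mOPC libraries. Over 30 mOPC markers they summed to 1094 to 1591 in mOPC and to 19.3 to 77.0 in mESC. The 9 fibroblast markers summed to at most 9.84 per 100000 in any library.

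3′UTR tags made up a small share of the interactions in the crosslinked libraries and more than that in the NPM libraries. mESC 1FA had 2.99%, 3.20% and 3.07% of its interactions there, mESC 2FA 3.14%, 3.46% and 3.30%, mESC ActD4 2.48% and 2.44%, mOPC 1FA 3.01%, 2.77% and 3.24%, mESC NPM 7.10% and 6.68%, and mOPC NPM 9.15% and 5.60%. Every NPM library lay above every library of the other groups. A rise in NPM was not particular to 3′UTRs. In the fits per gene given below, the median log2 change from 1FA for CDS was 1.01 in mESC NPM and 1.56 in mOPC NPM. For 3′UTRs it was 0.36 and 0.57. The mean difference between NPM and 1FA was 3.80 percentage points in mESC and 4.37 in mOPC, where it was 2.60 without the first NPM library and 6.15 without the second. An exact two-sided permutation test with the cell types as strata gave p = 0.01, the smallest this design allows, and an adjusted p of 0.06 over 24 comparisons of this kind (Benjamini-Hochberg). The share in mESC ActD4 differed from that of mESC 1FA by -0.626 percentage points (p = 0.1, exact permutation test, the smallest possible with 3 against 2 libraries, adjusted p = 0.141), with no overlap. The cell types differed by -0.0814 percentage points (mOPC minus mESC, exact permutation p = 0.7) and the fixations by 0.214 (p = 0.2), both with overlapping libraries. Since libraries come from whole cell populations, fewer cells with a transcript and fewer copies of it per cell cannot be told apart in these values.

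**Figure D1:**
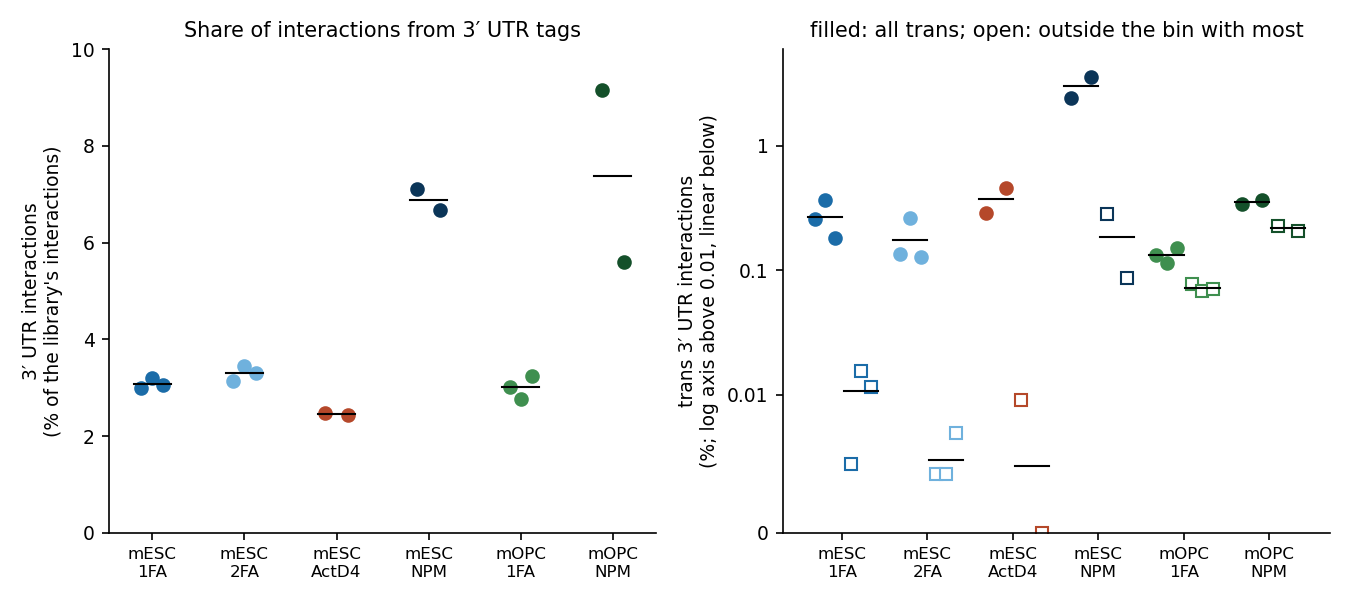
Left, 3′UTR tags as a percentage of all significant interactions, and right, the percentage of 3′UTR interactions whose DNA tag lay on another chromosome, on an axis that is logarithmic above 0.01 and linear below. Each point is a library of the named group, black lines are group means, and open squares leave out the 25-kb bin on chromosome 17 with the most trans interactions. The 4 NPM libraries lie at 5.60% to 9.15% on the left, and the mESC NPM libraries at 2.44% and 3.60% on the right.

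The interactions were spread over many genes, and the 10 with the most in a library held 4.41% to 4.83% of them in mESC 1FA and 5.53% to 6.71% in mOPC 1FA. In mESC 1FA the leading 10 over the 3 libraries were D10Wsu102e, Serbp1, Ncl, Zfp704, Spry4, Hnrnpr, Slc25a36, Enah, Tet1 and Dido1. D10Wsu102e had 1309, 1047 and 1125 interactions over an annotated 3′UTR of 122586 bases, and the median distance to its DNA tags in cis was 369177 bases. Serbp1, which codes for a messenger- and ribosome-binding protein, had 406, 357 and 544, and Ncl, which codes for the nucleolar protein nucleolin, 309, 352 and 431. Spry4, an inhibitor of receptor tyrosine kinase signalling, had 262, 260 and 280, and Tet1, an enzyme that oxidises 5-methylcytosine, had 158, 243 and 313. Per kb of 3′UTR and 100000 interactions the order changed. Rps19, a protein of the small ribosomal subunit, came first at 103, 162 and 146, followed by Spry4 at 92.2, 93.4 and 90.5, and the libraries of these 2 genes did not overlap. The tags of Rbm14, which came next, lay wholly within a second annotated gene on the same strand.

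In mOPC 1FA the most captured 3′UTR was that of Ppp1cb, a catalytic subunit of protein phosphatase 1, with 714, 629 and 498 interactions at a median distance of 522113 bases. D10Wsu102e followed with 496, 540 and 531, Utp14b with 544, 422 and 399 and Ncl with 494, 440 and 352, and these overlapped. All tags of Utp14b lay within Acsl3. Next came Zbtb20 and Zeb2, both transcription factors of neural cells, and Qk, an RNA-binding protein needed for myelination. Zbtb20 had 398, 422 and 375 interactions against 50, 37 and 69 in mESC 1FA, and Qk had 377, 348 and 356 against 150, 148 and 178. Per kb the highest levels were those of Slc5a6, a vitamin transporter, at 320, 297 and 423 per 100000, and of Ppp1cb at 195, 196 and 140. Fasn (fatty acid synthase), Cspg4 (the NG2 proteoglycan of progenitor cells) and Sox10 (a regulator of the oligodendrocyte lineage) were also among the first 10 per kb.

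Ppp1cb, Preb and Nsd2 among the 10 most captured genes of mOPC 1FA, and 5 of the 10 highest per kb, start in the first 45 Mb of chromosome 5. Genes there held 6.71%, 6.95% and 6.20% of the 3′UTR interactions in mOPC 1FA, and mOPC NPM had 4.18% and 4.21%, but 1.14% to 1.56% in the mESC libraries. The mOPC libraries all lay above the mESC libraries.

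Most 3′UTR tags in the crosslinked libraries lay many kb from their DNA tags, and in the NPM libraries most lay within 1 kb. The share within 1 kb was 8.40%, 11.5% and 9.81% in mESC 1FA, 11.02%, 16.6% and 14.3% in mESC 2FA, 14.5%, 8.81% and 11.7% in mOPC 1FA, and 29.98% and 27.4% in mESC ActD4. It was 86.1% and 86.8% in mESC NPM and 91.7% and 91.3% in mOPC NPM. ActD4 lay between the other crosslinked libraries and the NPM libraries, without overlap on either side. These distances describe only pairs that passed the significance filter, and by the study's counts ActD4 had the fewest uniquely mapped pairs. Whether depth bears on its distances was not tested. NPM exceeded 1FA by 76.5 percentage points in mESC and by 79.9 in mOPC (exact permutation test over both strata p = 0.01, adjusted p = 0.06), and ActD4 exceeded mESC 1FA by 18.8 (exact permutation p = 0.1, the smallest possible). The cell types differed by 1.76 points (p = 0.4) and the fixations by 4.05 (p = 0.2), in both cases with overlap (exact permutation tests).

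Long distances moved with this. The share of 3′UTR interactions between 100 kb and 1 Mb was 34.4%, 29.9% and 31.7% in mESC 1FA, 13.98% and 14.6% in mESC ActD4, and 0.0713% and 0.0394% in mESC NPM. Distances over 10 Mb took 0.342% to 0.355% in mESC 1FA and 0.847% to 1.13% in mOPC 1FA, without overlap, and none was listed in mESC ActD4. The median distance in cis was 30778 to 47232 bases in mESC 1FA, 6674 and 8473 bases in mESC ActD4, and 270 to 296 bases in the NPM libraries.

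**Figure D2:**
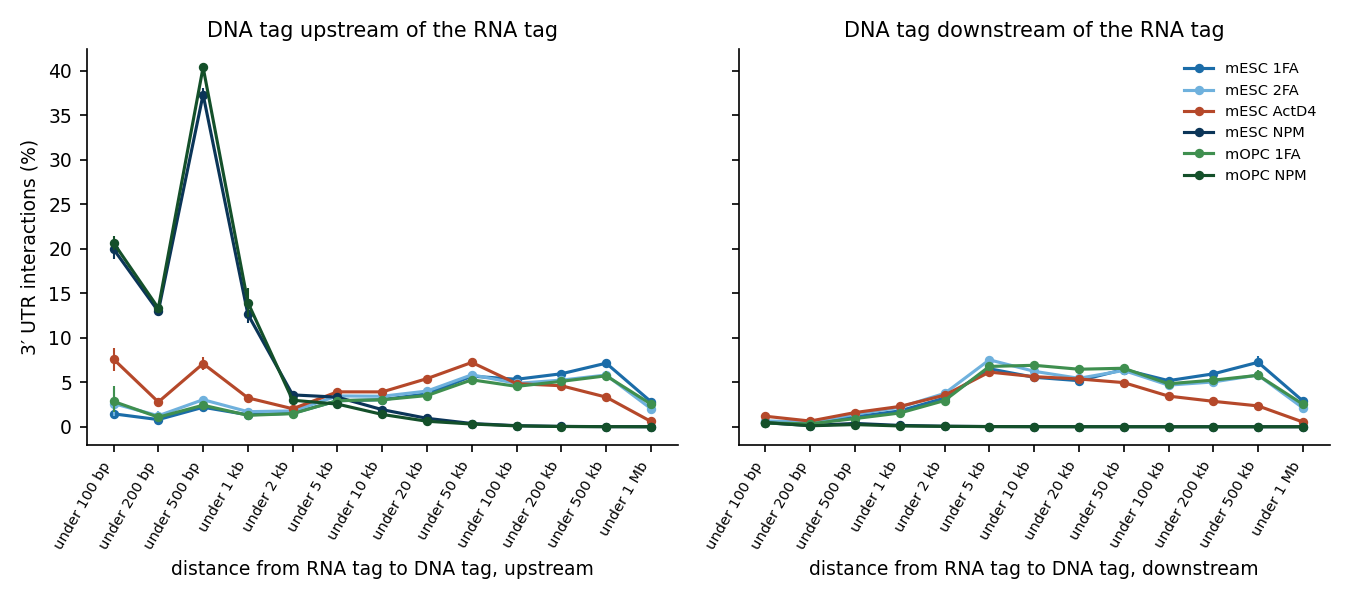
Percentage of the 3′UTR interactions of a library by distance between the tags, with the DNA tag upstream (left) or downstream (right) of the RNA tag on the RNA strand. Points are group means, vertical lines run from the lowest to the highest library, and the x axis gives the upper limit of each distance bin. The NPM groups peak within 1 kb on the upstream side, where 95.8% (mESC) and 96.5% (mOPC) of their near interactions lie.

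Within 1 kb the DNA tag lay upstream of the RNA tag, that is on the side of the gene body, more often than downstream in every group. Whether this is particular to 3′UTR tags was not tested, since the near upstream share was not set against that of intron or CDS tags. The upstream share there was 58.5% ± 2.10 (SD, n = 3) in mESC 1FA, 61.2% ± 3.46 (n = 3) in mESC 2FA, 65.1% ± 1.99 (n = 3) in mOPC 1FA, 72.3% ± 3.09 (n = 2) in mESC ActD4, 95.8% ± 1.00 (n = 2) in mESC NPM and 96.5% ± 1.28 (n = 2) in mOPC NPM. From 1 kb to 1 Mb the 1FA and 2FA libraries had the opposite balance. The upstream share at these distances was 44.5%, 43.8% and 44.1% in mESC 1FA, 44.3%, 43.0% and 43.9% in mESC 2FA and 41.3%, 41.2% and 42.1% in mOPC 1FA. It was 50.5% and 51.0% in mESC ActD4, 98.7% and 99.2% in mESC NPM and 99.1% and 98.6% in mOPC NPM. NPM exceeded 1FA by 54.8 points in mESC and 57.3 in mOPC (exact permutation test over both strata p = 0.01, adjusted p = 0.06). mOPC 1FA lay 2.64 points below and ActD4 6.57 points above mESC 1FA, both without overlap, at p = 0.1, the smallest p of the exact permutation test.

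Without DNA tags in the gene of the RNA tag some of these differences turned and others stayed. In mESC the upstream share then differed from that of 1FA by -0.853 points in ActD4 (exact permutation p = 0.2), by -3.49 in NPM (p = 0.1) and by -2.27 in 2FA (p = 0.1). In mOPC NPM it was still above mOPC 1FA, by 15.9 points (exact permutation p = 0.1), and mOPC 1FA lay 4.67 points below mESC 1FA (p = 0.1). The NPM values rest on few interactions, 12 upstream of 37 and 5 of 17 in mESC NPM and 44 of 75 and 16 of 49 in mOPC NPM, against 17112 of 50800 or more in each mESC 1FA library. The NPM difference over both cell types was 6.22 (exact permutation test over both strata p = 0.38). Own-gene DNA tags were 29.1% ± 1.78 (SD, n = 3) of 3′UTR pairs in mESC 1FA, 34.8% ± 2.34 (n = 3) in mESC 2FA, 32.0% ± 2.88 (n = 3) in mOPC 1FA, 56.1% ± 1.52 (n = 2) in mESC ActD4, 96.6% ± 0.7002 (n = 2) in mESC NPM and 99.4% ± 0.0568 (n = 2) in mOPC NPM. DNA tags within another gene were 35.2% to 43.3% in the 1FA and 2FA libraries, 24.2% and 26.4% in mESC ActD4, and 0.0663% to 0.163% in the NPM libraries.

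Compared with intron tags of the same library, 3′UTR tags had their DNA upstream more often from 1 kb to 1 Mb. The difference averaged 5.09 points and was positive in 13 of 15 libraries (exact permutation test of its sign within libraries, p = 0.000305, adjusted p = 0.00153 over 5 contrasts). It was largest in mOPC NPM (12.9), mESC NPM (11.8) and mESC ActD4 (10.4). Over the 9 libraries of the 1FA and 2FA groups it was 0.685 points, positive in 7 (exact permutation p = 0.0195, adjusted p = 0.0244). With each gene's intron tags weighted by its 3′UTR tags, so that both classes came from the same genes, the difference was 5.72 and positive in all 15 libraries (exact permutation p = 6.1e-05). Compared with CDS tags, the closest class in a messenger, the upstream share was 2.98 points higher (11 of 15 libraries, exact permutation p = 0.00171, adjusted p = 0.00427). That difference was 2.90 and positive in all 9 libraries of the 1FA and 2FA groups, 10.9 in mESC ActD4, and negative in the NPM groups, at -0.767 in mESC and -0.768 in mOPC. Intron and CDS tags can have gene body on both sides, while a 3′UTR tag has it mostly upstream. These upstream contrasts were not run without own-gene DNA tags, so they cannot tell position in the gene from other causes. The share within 1 kb was higher for 3′UTR than for intron tags in 11 of 15 libraries, by 4.37 points on average (exact permutation p = 0.0302, adjusted p = 0.0503). The 4 exceptions were the NPM libraries, with group means of -6.93 in mESC and -4.35 in mOPC. With intron tags weighted to the same genes the mean difference was 1.70 points (exact permutation p = 0.243). The tests in this paragraph take libraries as independent, while the replicates of a group share 1 list of pairs. Their p-values may therefore be too small.

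In the NPM libraries the DNA tags of 3′UTRs followed the exons of the gene. Among upstream own-gene DNA tags beyond 1 kb, 94.6% and 92.1% lay in exons in mESC NPM and 94.5% and 88.2% in mOPC NPM. In the other groups the share was 20.8% ± 0.493 (SD, n = 3) in mESC 1FA, 22.3% ± 1.37 (n = 3) in mESC 2FA, 21.3% ± 0.749 (n = 3) in mOPC 1FA and 22.1% ± 1.24 (n = 2) in mESC ActD4. Exons made up 14.2% to 18.5% of the upstream span of the same genes, and all groups lay above that level. The span was taken whole, without regard to distance from the tag. For the crosslinked groups, which lay close to that level, it is therefore no test of a preference for exons. The difference between NPM and 1FA was 71.3 points over both cell types (exact permutation test over both strata p = 0.01, the smallest possible, adjusted p = 0.06 over 36 comparisons). The median genomic distance of these exonic DNA tags was 2510 to 3161 bases in the NPM libraries, but counted over exonic bases alone, as along the spliced messenger, it was 684 to 761. In the other libraries the same medians were 3486 to 4354 and 2131 to 2464 bases. Counted along exonic bases, 62.4% to 67.5% of the exonic DNA tags of the NPM libraries lay within 1 kb of the RNA tag, against 7.02% to 14.7% elsewhere. Whether these DNA tags stem from genomic DNA or from copies of spliced RNA was not tested. Nor were these exonic values tested against those of CDS tags, so they are not shown to be particular to 3′UTRs.

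**Figure D3:**
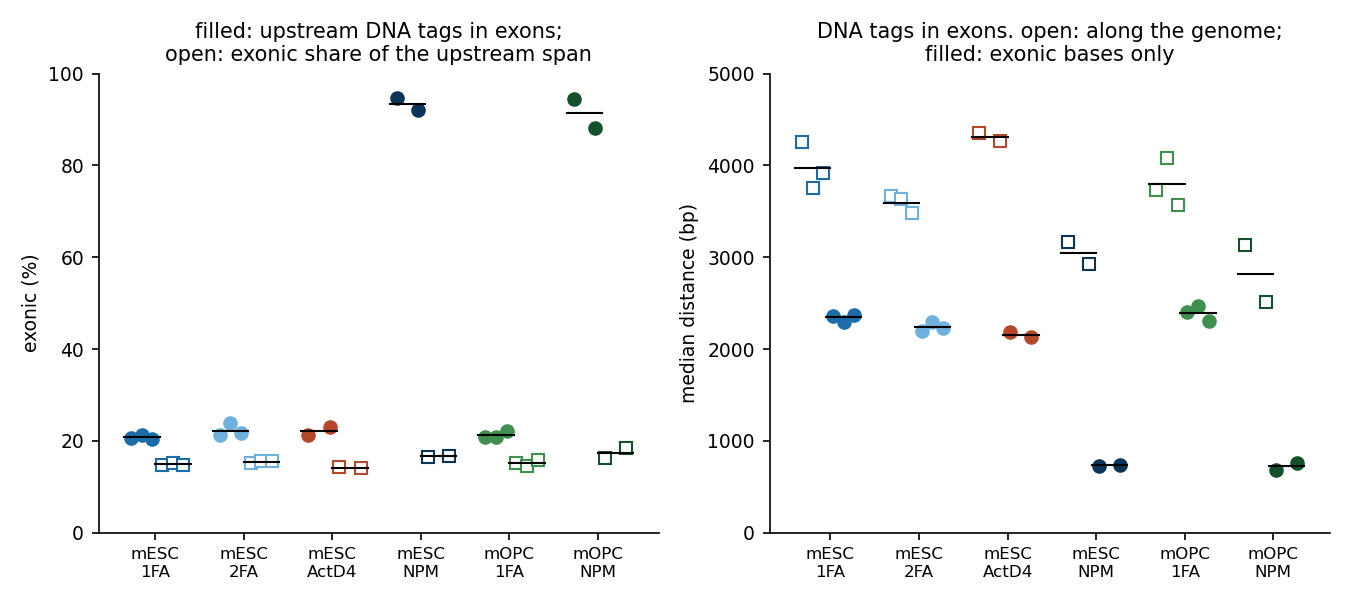
Left, the percentage of upstream own-gene DNA tags beyond 1 kb that lay in exons (filled) and the exonic percentage of the upstream span of the same genes (open), by library. Right, the median distance of the exonic DNA tags in genomic bases (open) and in exonic bases only (filled). In the 4 NPM libraries 88.2% to 94.6% of these DNA tags lay in exons, at a median of 684 to 761 exonic bases.

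Among the listed significant pairs, few 3′UTR tags were paired with another chromosome, and most that were in mESC went to a single bin. As the study reports, its significance filter took out many trans contacts. The trans shares and their spread over bins therefore describe only pairs that passed. The trans share was 0.257%, 0.367% and 0.183% in mESC 1FA, 0.136%, 0.262% and 0.129% in mESC 2FA, 0.289% and 0.456% in mESC ActD4, 0.132%, 0.115% and 0.151% in mOPC 1FA, 2.44% and 3.60% in mESC NPM and 0.339% and 0.367% in mOPC NPM. With all bins counted mESC NPM lay above all other libraries. NPM exceeded 1FA by 2.75 points in mESC and 0.220 in mOPC (exact permutation test over both strata p = 0.01, adjusted p = 0.06). The difference between these effects was not past the threshold (2.53 points, exact permutation p = 0.333). mOPC 1FA lay 0.136 points below mESC 1FA without overlap (exact permutation p = 0.1, the smallest possible).

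The bin chr17:39825001-39850000 (mm10) took 96.0% of the trans 3′UTR interactions of mESC 1FA, 96.9% in mESC 2FA, 98.3% in mESC ActD4 and 94.5% in mESC NPM, but 45.5% in mOPC 1FA and 37.2% in mOPC NPM. The DNA tags lay between positions 39831351 and 39848817, where Gm26917, Gm42418, AY036118 and the ribosomal RNA entry CT010467.1 are annotated. In mESC 1FA 263 genes and in mESC NPM 949 genes had a 3′UTR tag paired with it. Without this bin the trans share was 0.291% and 0.0892% in mESC NPM and 0.226% and 0.209% in mOPC NPM, which then overlapped, and NPM exceeded 1FA by 0.1796 points in mESC and 0.145 in mOPC (exact permutation test over both strata p = 0.01). The order of the cell types in the 1FA libraries turned, with mOPC 1FA 0.062 points above mESC 1FA (exact permutation p = 0.1). Per the study's methods contacts in blacklisted regions of mm10 were removed from the significant pairs, and whether the lists used here precede that step was not tested. Other trans bins were small. In mOPC NPM chr11:3175001-3200000 took 71 interactions and chr11:3150001-3175000 took 56.

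Part of the trans 3′UTR tags in the crosslinked libraries overlapped annotated small nucleolar RNAs (snoRNAs) and other small RNAs, which guide the modification of ribosomal and other RNAs and are often cut from host transcripts. Such tags were 23.3% to 60.7% of the trans interactions of the mESC 1FA and 2FA libraries, 93.3% and 92.9% in mESC ActD4 and 26.9% to 37.5% in mOPC 1FA, but 1.06% and 0.342% in mESC NPM and none in mOPC NPM. Among cis interactions they were at most 0.156% in any library. In mESC 1FA the leading pairs were Snord45b in Rabggtb with 72 trans interactions, the snoRNA Gm24299 in Taf1d with 53, Snord14a in Rps13 with 27 and Snord1a in 1810032O08Rik with 25. All 72 trans interactions of the Rabggtb 3′UTR, of 95 in all, overlapped Snord45b. In mOPC 1FA Rabggtb had 34 trans interactions of 43, Taf1d 25 of 60 and 1810032O08Rik 21 of 88. The remaining leaders there were Son with 25 of 256 and Zbtb20 with 18 of 1195.

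The trans share of 3′UTR tags did not pass the threshold against either comparison class over all libraries. It was -0.126 points from that of introns (exact permutation p = 0.299, adjusted p = 0.374) and -0.00546 from that of CDS (p = 0.898). Against introns the sign depended on the genes compared. With each gene's intron tags weighted by its 3′UTR tags it was 0.119 points higher, in 13 of 15 libraries (exact permutation p = 0.00128), and without the chromosome 17 bin, an alternative chosen after seeing the data, it was -0.143 (exact permutation p = 0.00555). Over the 9 libraries of the 1FA and 2FA groups it was below that of CDS in all 9, with a mean difference of -0.0838 points (exact permutation p = 0.00391, adjusted p = 0.00651). These tests also take replicates that share a list of pairs as independent, so their p-values may be too small.

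In the main fits more 3′UTRs passed the threshold between the cell types than in the other comparisons. The ActD4 and NPM groups have 2 libraries each, so these counts do not rank the sizes of the differences. Interactions were counted per gene and region class, and log2 CPM values (CPM being counts scaled to a common library total, here after trimmed-mean correction) were fitted with limma over all classes together. The fits also take replicates that share a list of pairs as independent. Their p-values here and below may therefore be too small, and the counts of genes that passed too large. Of 2286 3′UTRs tested between mOPC 1FA and mESC 1FA, 1371 passed an adjusted p of 0.05, 866 higher and 505 lower in mOPC. Of all 17022 gene and region features 69.8% passed, 32.3% higher and 37.5% lower. The median log2 difference was 0.31 for 3′UTRs, -0.65 for CDS and -0.18 for all features. This balance depended on the scaling, since with scaling by library total 598 were higher and 846 lower, at a median of -0.31. Directions of single genes below are read against that shift. A 3′UTR entered the test if either group had enough interactions, and 472 of the 2286 did so through mOPC 1FA alone and 922 through mESC 1FA alone. Single genes are named below from those called with a mean of at least 20 interactions and groups that do not overlap, so no ranking of all 3′UTRs is meant. One that entered through the group where it is high could hardly differ the other way, so its values are a description. Without the genes in the first 45 Mb of chromosome 5, left out after seeing the data, 1317 passed, 820 higher and 497 lower.

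Slc5a6, Ncald, Lbh and Tnr were among the 3′UTRs that led in mOPC, and all genes named in this paragraph had entered through the group where they are high alone. Slc5a6 had 165, 134 and 212 interactions in mOPC 1FA against 0, 1 and 0 in mESC 1FA. Ncald, a neuronal calcium sensor, had 106, 118 and 92, and Tnr, an extracellular matrix protein of oligodendrocyte lineage cells, 94, 80 and 113, with none listed in mESC 1FA. Lbh had 87, 90 and 120 against none. At the other end Esrrb and Tfcp2l1, pluripotency factors of embryonic stem cells, had 242, 206 and 222 and 99, 97 and 123 interactions in mESC 1FA with none listed in mOPC 1FA. Agtrap, Igf2bp1 and Cnpy1 were likewise listed in mESC 1FA alone. Igf2bp1, which codes for a protein that binds and stabilises messengers, had 115, 111 and 134.

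Of the 30 mESC markers 9 were tested and all 9 were lower in mOPC (median -4.81), but 8 of them had entered through mESC 1FA alone. Of the 30 mOPC markers 13 were tested, 12 higher and none lower (median 6.58), and 11 had entered through mOPC 1FA alone. The filter thus largely set these directions. Over all 3′UTRs tested 37.9% were higher and 22.1% lower, and over all features 32.3% were higher and 37.5% lower. Zeb2 had 281, 244 and 275 interactions against 1, 2 and 1, and Sox10 had 48, 50 and 100 against 0, 1 and 0. Among RNA-binding regulators of 3′UTRs (32 listed, such as Argonaute and Pumilio proteins), 9 were higher and 8 lower of 23 tested, with a median of -0.25. By library total 3 were higher and 12 lower. Of the 23, 2 had entered through mOPC 1FA alone and 8 through mESC 1FA alone. Of 25 factors of 3′ end processing 7 were tested, 2 higher and 2 lower, or 2 and 4 by library total. Of the 7, 1 had entered through mOPC 1FA alone and 3 through mESC 1FA alone. Of 85 ribosomal protein genes 16 were tested, 13 of them through mESC 1FA alone, with 1 higher and 9 lower, at a median of -1.32. By library total 0 were higher and 14 lower. Rps19 fell from 52, 80 and 80 interactions to 3, 6 and 14. Of 30 genes with short-lived messengers 9 were tested, 5 higher and 2 lower. Of the 9, 3 had entered through mOPC 1FA alone and 2 through mESC 1FA alone. Of the markers of neurons 2 were tested. Map2 had 34, 27 and 41 interactions in mOPC 1FA against 1, 0 and 0, and Stmn2 was listed in mESC 1FA alone at 23, 21 and 26. Each had entered through the group where it is high alone, so the filter largely set these directions too.

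**Figure D4:**
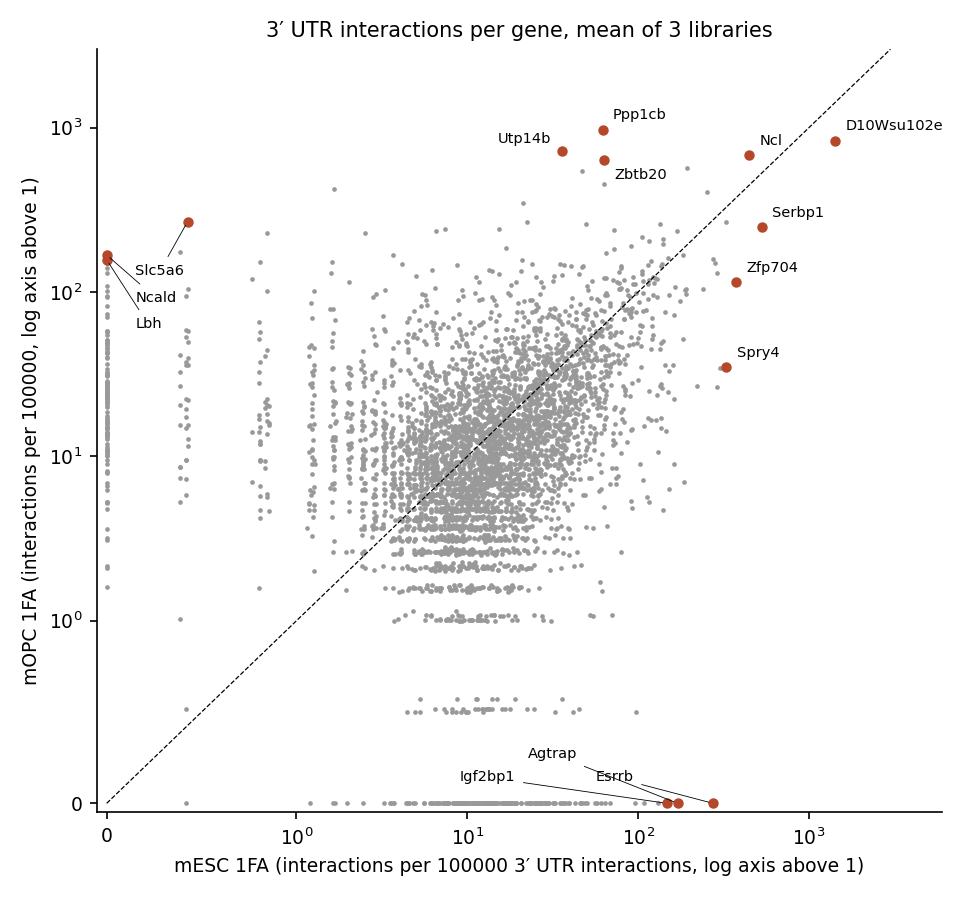
Mean 3′UTR interactions per 100000 of a gene in mESC 1FA (x axis) and in mOPC 1FA (y axis), both logarithmic above 1 and linear below, for the 4286 genes with at least 50 3′UTR interactions over all libraries. Each grey point is a gene, the dashed line marks equal values, and red points are the 5 most captured genes of each cell type and the 3 largest changes each way among the genes named by rule. Genes such as Esrrb and Ncald lie at the edges, far from the line.

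The capture of a 3′UTR was also set against that of the introns of the same gene. The log2 ratio of 3′UTR to intron interactions was tested in 2179 genes, and 364 passed (16.7%), 287 higher (13.2%) and 77 lower (3.53%) in mOPC, with a median of 0.32. With a prior count of 2 in place of 0.5 it passed in 642 genes, and without the filter on low counts in 1863. Between mESC 2FA and mESC 1FA none of 2206 3′UTRs passed in limma, 139 had an unadjusted p under 0.05, and 0.00602% of all features passed. The ratio also gave 0 calls of 2106 (152 at an unadjusted p under 0.05).

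After 4 h of actinomycin D, most of the 3′UTRs that passed were lower. Of 2172 3′UTRs tested, 486 passed, 38 higher and 448 lower than in mESC 1FA, at a median log2 difference of -0.91. Of all 16890 features 41.3% passed, 13.3% higher and 28% lower, with a median of -0.31, while CDS features had 928 higher and 131 lower at a median of 0.63. The ActD4 libraries were small, and by the study's counts they had the fewest uniquely mapped pairs of all groups. Of the 2172, 2117 had entered the test through mESC 1FA alone. The count of 3′UTRs was 204 to 1498 when single libraries were left out. It was lowest, 204 to 264, without one of the mESC 1FA libraries, and 1498 and 1155 without one of the ActD4 libraries, where the remaining one is assumed to vary like mESC 1FA.

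Mthfsd had 71, 96 and 90 interactions in mESC 1FA, Ube2z, a ubiquitin-conjugating enzyme, 58, 46 and 42, and Ddx6, a helicase of messenger repression, 44, 30 and 38, and none was listed in mESC ActD4. The same held for Mfsd12 and Mul1, and all 5 had entered through mESC 1FA alone. The highest rises among the genes named by rule were those of Map1lc3b (23 and 16 interactions against 26, 30 and 28, log2 change 2.315 ± 0.23 SE, limma adjusted p = 0.000486) and Aars, the alanyl-tRNA synthetase (37 and 23 against 56, 50 and 51, 2.03 ± 0.17). All tags of Map1lc3b and 60% of those of Aars lay within a second gene on the same strand. Sbno2 (15 and 13 against 32, 41 and 32, 1.55 ± 0.29) and the cytoskeletal linker Dst (18 and 13 against 51, 43 and 42, 1.31 ± 0.21) also rose. Their calls were lost with the replicate number as a block (limma adjusted p = 0.0545 and 0.0695). Gse1 rose by 1.30 ± 0.32, with all its tags within a second gene. Its call was lost without the filter on low counts (0.81, limma adjusted p = 0.131) and without the third mESC 1FA library (adjusted p = 0.084).

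The lists tested here had entered mostly or wholly through mESC 1FA, all 8 factors of 3′ end processing and all 17 ribosomal protein genes among them. Over all 3′UTRs tested 20.6% fell and 1.75% rose, and over all features 28% fell and 13.3% rose. Of the factors of 3′ end processing 4 fell and none rose of 8 tested (median -1.19), but 2 of 8 fell with scaling by library total or without interactions within 1 kb. Of ribosomal protein genes 6 fell and none rose of 17 (median -1.89). Rps19 had 1 and 2 interactions left. Among RNA-binding regulators 6 fell and 1 rose of 24, and Ago3, an Argonaute protein, had 45, 31 and 29 interactions in mESC 1FA and none listed in mESC ActD4. Of the mESC markers 2 of 12 fell, among them Esrrb, which had 18 and 11 interactions left (log2 change -1.09 ± 0.13, limma adjusted p = 0.0013). Of 7 short-lived messengers tested 1 rose and 1 fell. The ratio of 3′UTR to intron passed in 144 of 2076 genes (6.94%), 59 higher (2.84%) and 85 lower (4.09%), at a median of -0.08. With a larger prior count of 2 it passed in 617, 536 of them higher, at a median of 0.56, so its direction depends on that choice.

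In the NPM libraries more 3′UTRs passed upward than downward, and CDS features did so to a larger extent. Of 2313 3′UTRs tested between mESC NPM and mESC 1FA, 773 passed, 566 higher and 207 lower, at a median of 0.36. Of all 17417 features 41.1% passed, 18.4% higher and 22.7% lower, with a median of -0.06. In mOPC 862 of 2417 passed, 708 higher and 154 lower, at a median of 0.57, beside 49.5% of all 16234 features, 27.7% higher and 21.9% lower, with a median of 0.20. The filter bears on these counts, since 1668 of the 2313 had entered through mESC 1FA alone and 80 through mESC NPM alone, but 451 of the 2417 through mOPC 1FA alone and 633 through mOPC NPM alone. Higher calls were 24.5% of 3′UTRs and 47.6% of CDS features in mESC NPM, and 29.3% and 63.6% in mOPC NPM. With scaling by library total 874 were higher and 99 lower in mESC (median 0.81), and 1268 higher and 36 lower in mOPC (median 1.26). The balance turned when interactions within 1 kb were left out. Then 166 were higher and 613 lower in mESC (median -1.81), and 161 higher and 283 lower in mOPC (median -0.91). Without the first mOPC NPM library, which had the highest 3′UTR share, 115 were higher and 108 lower, 223 in all.

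The largest rises in mESC NPM among the genes named by rule were those of histone messengers, of Peg10 and of Rsrp1, and all 5 had entered the test through mESC NPM alone. Hist1h4d had 143 and 64 interactions against 3, 2 and 3 in mESC 1FA (log2 change 6.82 ± 0.51 SE). Hist1h1d had 98 and 33 against 2, 0 and 3 (6.90 ± 0.82), and Hist2h4 74 and 24 against 3, 3 and 10 (4.98 ± 0.68). Peg10, an imprinted gene derived from a retrotransposon, had 49 and 49 against 1, 1 and 7 (6.11 ± 0.66). Rsrp1 had 33 and 57 against 6, 4 and 9 (4.67 ± 0.39). The largest falls by the same rule were those of Zfp148, with 36, 25 and 55 interactions in mESC 1FA and none listed in mESC NPM, of Rpl31 (0 and 4 against 27, 29 and 41), of the decapping factor Edc3 (1 and 2 against 40, 40 and 58), of the seryl-tRNA synthetase Sars (1 and 3 against 53, 37 and 51) and of Mthfsd (2 and 8 against 71, 96 and 90), all 5 through mESC 1FA alone. The call for Rpl31 was lost with scaling by library total (limma adjusted p = 0.0535), without interactions within 1 kb (0.182) and without any one of the mESC 1FA libraries (0.0855 to 0.105).

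In mOPC NPM the leading 3′UTRs with a mean of at least 20 interactions were Olig1, Dtx3, Scd1, H1f0 and Atraid, while less captured ones such as Hist1h4d had larger changes (6.00). All 5 had entered the test through mOPC NPM alone. Olig1, a transcription factor of the oligodendrocyte lineage, had 126 and 28 interactions against 2, 2 and 2 in mOPC 1FA (log2 change 4.73 ± 0.58 SE). Scd1, a desaturase of fatty acid synthesis, had 248 and 33 against 6, 1 and 18 (4.16 ± 1.08), and H1f0, a linker histone, 87 and 30 against 4, 1 and 5. Dtx3 had 57 and 81 against 3, 1 and 6, and Atraid 76 and 44 against 3, 3 and 4. The first mOPC NPM library was the larger, with 116482 3′UTR interactions against 66699. The call for Scd1 was lost without the filter on low counts (limma adjusted p = 0.0844) and without either NPM library (0.239 and 0.0794), that for H1f0 without the first (0.0635) and that for Dtx3 without the second (0.0543). With 1 NPM library left it is assumed to vary like mOPC 1FA. The largest falls were those of the splicing factor Tra2b (5 and 6 against 65, 50 and 32, -2.84 ± 0.38), of Ost4, of Ppp1cb (215 and 74 against 714, 629 and 498, -2.11 ± 0.34), of Nol12 and of Fto, an RNA demethylase (31 and 18 against 101, 98 and 102, -1.91 ± 0.23). Tra2b, Ost4 and Nol12 had entered through mOPC 1FA alone, and the other 2 would have entered through either group. Ost4 fell by 2.11 on the log2 scale (6 and 21 against 60, 45 and 66), but without interactions within 1 kb its value turned to 0.24. There Ppp1cb was at -0.49 (limma adjusted p = 0.657) and Fto at -1.58 (0.0571), so their calls were lost too, and those of Nol12 (0.063) and Ost4 (0.0565) were lost without the first mOPC NPM library.

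Over all 3′UTRs tested 24.5% rose and 8.95% fell in mESC NPM, and 29.3% rose and 6.37% fell in mOPC NPM. Over all features 18.4% rose and 22.7% fell in mESC NPM, and 27.7% rose and 21.9% fell in mOPC NPM. Of the mESC markers 10 of 13 tested rose and none fell in mESC NPM (median 1.67), and 11 of the 13 would have entered through either group. Sox2 had 43 and 28 interactions against 17, 5 and 8 and had entered through mESC NPM alone. Without interactions within 1 kb none of 10 tested rose and 1 fell. Of the mOPC markers 8 of 19 rose and 1 fell in mOPC NPM (median 0.95), with 6 of the 19 entered through mOPC NPM alone and none through mOPC 1FA alone. With scaling by library total 16 of 19 rose and 1 fell, and without interactions within 1 kb 4 rose and 1 fell of 12. The summed mOPC list was 1591 and 1094 per 100000 in mOPC NPM and 1242 to 1329 in mOPC 1FA, so the groups overlapped. Of the RNA-binding regulators 13 rose and 4 fell of 26 in mESC NPM (median 0.74), and 9 rose and 3 fell of 19 in mOPC NPM. Without interactions within 1 kb 3 rose and 4 fell of 24 in mESC NPM, and 1 rose and 1 fell of 15 in mOPC NPM. Of the 26, 11 had entered through mESC 1FA alone and 1 through mESC NPM alone, and 4 of the 19 through mOPC NPM alone. Of the factors of 3′ end processing 1 rose and 1 fell of 8 in mESC NPM, and 2 rose and 1 fell of 7 in mOPC NPM. Here 6 of the 8 had entered through mESC 1FA alone. Of the 7, 2 had entered through mOPC NPM alone and 2 through mOPC 1FA alone. Ribosomal protein genes went the other way in mESC NPM, with 1 higher and 7 lower of 17 (median -0.99), of which 15 had entered through mESC 1FA alone. By library total 2 were higher and 4 lower (median -0.54). Rps19 had 3 and 5 interactions there. In mOPC NPM 1 was higher and 1 lower of 6 (median -0.07, or 0.60 by library total). Of the 6, 3 had entered through mOPC NPM alone and 2 through mOPC 1FA alone. Of short-lived messengers 2 of 7 rose in mESC NPM, and 6 rose and 2 fell of 12 in mOPC NPM. Of the 7, 4 had entered through mESC 1FA alone. By library total 5 of 7 and 8 of 12 rose and none fell. In mOPC NPM Egr1, an immediate early gene, had 66 and 68 interactions against 12, 6 and 14 and Myc had 36 and 15 against 0, 0 and 2. Myc was among 3 of the 12 that had entered through mOPC NPM alone. Of the astrocyte markers Gja1 had 34 and 27 against 3, 7 and 14 in mESC NPM, and it had entered through mESC NPM alone. The summed astrocyte list was 86.1 to 123 per 100000 there and at most 35.2 in any other group, and its part in these results was not tested.

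Relative to introns the NPM libraries held more 3′UTR. The ratio passed in 1141 of 2192 genes in mESC (52.1%), 1095 higher (50%) and 46 lower (2.1%), at a median log2 change of 1.05. In mOPC it passed in 1068 of 2206 (48.4%), 1049 higher (47.6%) and 19 lower (0.861%), at a median of 1.18. Of the mESC markers tested for the ratio in mESC NPM all 11 rose, and of the mOPC markers 12 of 17 rose in mOPC NPM.

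Histone messengers took a larger share of the 3′UTR interactions in the NPM libraries. Per 10000 3′UTR interactions, histone genes gave 6.77, 6.27 and 8.98 in mESC 1FA, 8.23, 10.2 and 14.6 in mESC 2FA, 1.05, 0.858 and 2.01 in mOPC 1FA, 281 and 84.1 in mESC NPM and 13.99 and 20.99 in mOPC NPM. None was listed in mESC ActD4. The NPM libraries did not overlap with the 1FA libraries of their cell type, although the first mESC NPM library was far above the second. The difference over both cell types was 95.6 per 10000 (exact permutation test over both strata p = 0.01, the smallest possible, adjusted p = 0.06), but 46.5 without the first mESC NPM library and 145 without the second. Of the 67 histone genes 11 were tested in mESC NPM and 5 in mOPC NPM, and all were higher, but 9 of the 11 and all 5 had entered the test through the NPM libraries alone and could hardly be lower. Both of those tested in mESC ActD4 had entered through mESC 1FA alone.

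The position of the tags differed as well. In mESC NPM 805 of 866 histone tags (93.0%) and 280 of 342 (81.9%) had the last base of the stem-loop between 5 bases upstream and 20 bases downstream of the tag centre, and in mOPC NPM 98 of 163 (60.1%) and 96 of 140 (68.6%). In mESC 1FA these were 6 of 54, 2 of 49 and 6 of 78, in mESC 2FA 14 of 58, 9 of 72 and 17 of 121, and in mOPC 1FA 0 of 7, 1 of 5 and 0 of 13. The tags at the stem-loop thus made up most histone tags in the NPM libraries and few in the other libraries. In the stem-loop positions printed above, the annotated 3′UTR runs on for 57 bases in Hist1h4h and for 4895 bases in Hist1h1d behind the tag centre. In mESC NPM 125 histone interactions (14.4%) and 48 (14.04%) were in trans, 98 and 46 of them with the chromosome 17 bin, and no histone interaction was in trans in any other library.

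**Figure D5:**
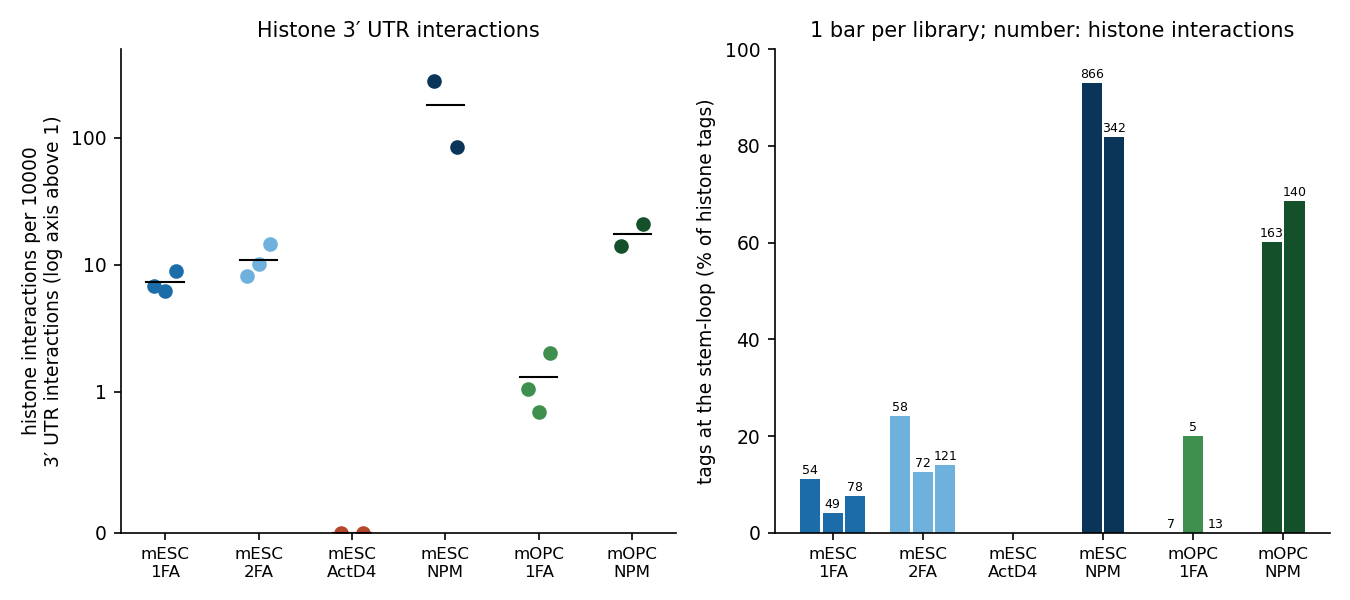
Left, interactions of histone genes per 10000 3′UTR interactions by library, on an axis that is logarithmic above 1, with black lines for group means. Right, bars give the percentage of histone tags of each library that lie at the stem-loop, and the number over a bar is the histone interactions behind it. The mESC NPM libraries reach 93.0% and 81.9%, from 866 and 342 interactions.

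The letters near the tags followed the same division between libraries. GCAG began 10 to 13 bases downstream of the tag centre in 14.8% ± 0.867 (SD, n = 3) of 3′UTR tags in mESC 1FA, 14.8% ± 1.00 (n = 3) in mESC 2FA, 13.5% ± 0.588 (n = 2) in mESC ActD4 and 11.3% ± 0.279 (n = 3) in mOPC 1FA. In mESC NPM it was 3.00% ± 0.177 (n = 2) and in mOPC NPM 2.24% ± 0.247 (n = 2). At other offsets the same number of positions held the letters in 2.10% of tags in the first mESC NPM library and in 2.56% in the first mESC 1FA library. The difference between NPM and 1FA over both cell types was -10.4 points (exact permutation test over both strata p = 0.01, adjusted p = 0.06). The letters were not peculiar to 3′UTRs, and why they stand at this offset was not tested. In the first mESC 1FA library they stood there in 15.8% of 3′UTR tags, 15.5% of intron tags and 20.1% of CDS tags. Tags within 100 bases of the annotated transcript end were 6.26% to 7.07% of 3′UTR tags in the means of the crosslinked groups, 9.71% in mESC NPM and 8.63% in mOPC NPM. Repeats in sense covered 3.26% to 4.72% of 3′UTR tags.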

How the data were processed

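RADICL-seq was carried out by the authors on mESC and mOPC, with 2 or 3 libraries in each of 6 groups. Per the study's methods replicates are batches of cells of different passage. The authors extracted tags with TagDust2, removed ribosomal RNA and PCR duplicates, aligned to mm10 with BWA (0.7.15-r1140), required mapping quality 37, annotated the RNA tags with GENCODE M14 genes on the same strand and put DNA tags into 25-kb bins, and tested each pair of transcript and bin by a one-sided binomial test. Lines of the deposited lists are single interactions of pairs with an adjusted p-value under 0.05, with the authors' p-values of the pair, tag positions and annotation (no unit). No per-sample column was left unused (0).

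Distinct tag positions, gene and region were counted as 1 interaction. Symbols, exons and 3′UTR lengths come from GENCODE M21, sequences from the mm10 reference. Distances run between tag centres. Shares were compared by exact two-sided permutation over libraries, with Benjamini-Hochberg adjustment. Per-gene counts, made here, were tested with limma 3.58.1 in R 4.3.3 on log2 CPM (prior 0.5, trimmed-mean scaling) where a feature had at least 10 interactions in as many libraries as the smaller group has and 15 in all, adjusted over all features of all region classes. Other steps used Python 3.11.15, pandas 2.3.3, numpy 2.4.6 and scipy 1.17.1, and the fits were checked on simulated data.

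Genes were named by rule: in each capture comparison the 5 highest and 5 lowest changes among called genes with a mean of at least 20 interactions and groups that do not overlap, the 10 most captured genes and the 10 highest per kb in the 1FA groups, the 5 with the most trans interactions, and list examples. 1 gene that this rule selects is not reported here. Single positions, Mcph1 and Snrpd3 among them, were named for their interaction count. The members and gene lists were chosen with earlier results of these data known. The lists hold only significant pairs and do not give the depth of a library. Uniquely mapped pairs per library, which the study reports, were fewest in ActD4. They were not used here, so no limit was set for a listed 0. Alternatives changed the filter, prior, scaling, distance limit, gene set and libraries.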

Additional observations from a re-analysis of the deposited data

How the results depend on the processing

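Direction was kept by most shares under the alternatives. The NPM and ActD4 differences in the share within 1 kb kept theirs under all of them. The exceptions follow, and their cause was not tested unless the setting itself shows it. The 3′UTR share of mOPC 1FA minus mESC 1FA was 0.273 among protein-coding transcripts, -0.254 without tags that overlap a repeat, and -0.198 to 0.0379 with single libraries left out, where that of mOPC NPM was 2.60 to 6.15. The trans difference was 0.062 without the chromosome 17 bin for mOPC minus mESC, 0.1796 for mESC NPM, 0.145 for mOPC NPM, and -0.00583 without it and -0.193 with each pair counted once for ActD4. The upstream difference of 2FA was 0.368 beyond 10 kb and 0.231 with each pair counted once. Without own-gene DNA tags the upstream differences were -0.853 (ActD4), -3.49 (mESC NPM) and 6.22 (NPM, both cell types), while those of mOPC 1FA, 2FA and mOPC NPM kept their direction. Against introns the trans difference was 0.119 weighted by gene, 0.0532 in the 1FA and 2FA libraries and -0.143 without the bin (an alternative chosen after seeing the data), and the near difference was 1.70 weighted by gene (exact permutation p = 0.243). Against CDS the trans difference was -0.0838 in the 1FA and 2FA libraries. Leaving out single libraries gave 46.5 to 145 for the histone difference of NPM, -0.547 to 0.463 for GCAG in 2FA, -0.216 to 0.672 for the tags near transcript ends in ActD4, 3.62 to 5.26 for the near difference against introns and -0.0332 to 0.00701 for the trans difference against CDS.

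Counts of called genes moved more. Where 1 NPM or ActD4 library remains, or the ActD4 libraries are summed, it is assumed to vary like the other group. Without the filter the 3′UTRs called were 3324 (mOPC minus mESC), 2444 (ActD4), 1666 (mESC NPM) and 1911 (mOPC NPM), and by ratio to intron 1863, 1790, 2173 and 542. A fit of all 15 libraries gave 795 for ActD4 and 167 for the mOPC ratio. The ActD4 libraries summed into 1, chosen after seeing the data, gave 1024, and 721 for the ratio. With a prior count of 2 the ratio gave 642 (mOPC minus mESC) and 617 (ActD4). In mOPC NPM 444 passed without interactions within 1 kb and 1304 with scaling by total. With single libraries left out the counts were 204 to 1498 (ActD4), 438 to 1017 (mESC NPM) and 223 to 824 (mOPC NPM, 223 without its first library and 547 without its second), and by ratio 219 to 331 (mOPC minus mESC), 0 to 5 (2FA), 8 to 919 (ActD4), 747 to 1574 (mESC NPM) and 659 to 1853 (mOPC NPM). Ost4 in mOPC NPM turned to 0.241 without interactions within 1 kb. Replicate numbers were not taken as pairs, since not every same-number correlation was over 0.1 (-0.0436 to 0.173). For 2FA each library correlated best with its own number (0.0801 to 0.173, other numbers -0.17 to 0.0201), a hint from the data and not the design, and within numbers its 3′UTR share and share within 1 kb were higher and its trans share lower in all 3 (exact permutation p = 0.25, the smallest possible). With the replicate number as a block 18 3′UTRs passed in 2FA, 256 in ActD4 (2 higher, the calls for Sbno2, Dst and Gse1 lost at limma adjusted p = 0.0545, 0.0695 and 0.13) and 494 in mESC NPM, and by ratio 10 in 2FA and 83 in ActD4.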
